A study of Homo sapiens with 6 samples.

Results

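The nonhistone genes around the histone cluster of chromosome 6 were taken as the protein-coding genes of the count table that lie on chromosome 6 between positions 25279078 and 29738528 (hg38), leaving out names that start with HIST or HLA. They are 61 of the 58735 listed genes, within a stretch of 4.46 Mb. RNA was sequenced from H2452, an established pleural mesothelioma cell line, in 3 libraries labelled WT that carry a scrambled control sgRNA (sgCtrl) and 3 libraries labelled NF2-KO that carry an *NF2*-targeting sgRNA (sg*NF2*-1). All cells had received a lentivirus with Cas9 and mCherry and had been sorted for mCherry, so each group is a sorted population and not a clone, and a single guide against *NF2* stands for the knockout. *NF2* encodes merlin, an upstream activator of the Hippo kinases, and the comparison asks which transcripts differ when it has been targeted. Position, biotype and name decide which genes are members. The segment itself was selected on the measured differences between these same libraries, which were known when it was proposed, so the changes of the members are given as a description.

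The stretch is the extended class I end of the major histocompatibility complex. Between and around its histone genes lie butyrophilins, which are immunoglobulin-like membrane proteins that gamma delta T cells recognise, the iron regulator *HFE*, a family of SLC17 anion transporters, zinc finger genes of which many carry the SCAN dimerisation domain, and a run of olfactory receptors. Neighbouring members of such families arose by duplication and can resemble each other in sequence.

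The libraries held 14782423 to 17416463 counts, of which the members took 0.0772 to 0.0795% in sgCtrl and 0.0578 to 0.0650% in sg*NF2*-1. The *NF2* transcript had 67.5 to 73.7 CPM in sgCtrl and 39.3 to 52.0 CPM in sg*NF2*-1, where CPM is the usual depth-scaled read count, here with library totals adjusted by TMM. Of 14 mesothelial markers, 10 were at 1 CPM or more in their mean and *ITLN1* had no count. The list summed to 3531 to 3974 CPM in sgCtrl and 3449 to 4193 in sg*NF2*-1. By the call rule given below, *KRT7*, *MSLN*, *BNC1* and *KRT18* were higher (log2 fold changes 1.20, 0.66, 0.54 and 0.28). *PDPN*, *WT1* and *KRT19* were lower (-1.28, -1.04 and -0.94). Over all tested genes, 17.7% were higher and 16.6% lower. *PTPRC*, *LUM* and *DCN* had no count in any library, and the fibroblast list summed to at most 0.0659 CPM. The leukocyte list of 4 genes summed to 133 to 148 CPM in sgCtrl and 64.0 to 70.6 in sg*NF2*-1, nearly all from *CD14*. The endothelial list of 3 genes summed to 6.19 to 8.53 and 1.93 to 3.24 CPM, and the neural list of 4 genes, nearly all from *MBP*, to 207 to 228 and 263 to 299 CPM. The part of these markers in the results was not tested. In bulk RNA, fewer cells of a type and less RNA per cell cannot be told apart. The study's methods call its replicates biological, while the labels do not say whether the 3 libraries of a group came from separate cultures, and p-values measure the spread between these libraries.

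Of the 61 members, 26 passed the expression filter and were tested. A gene was called at a Benjamini-Hochberg adjusted p under 0.05 in edgeR's quasi-likelihood test over all 14179 tested genes. By this rule 9 members were lower in sg*NF2*-1, where 16.6% of all tested genes were, and 2 members were higher, where 17.7% of all tested genes were. The remaining 15 were not called. At an unadjusted p under 0.05 with a log2 fold change beyond 0.5, 7 members were lower (10.8% of all tested genes) and 1 was higher (9.22%). The groups did not overlap for 10 members with sg*NF2*-1 below (22.2% of all tested genes) and for 3 with sg*NF2*-1 above (23.2%), together 13 members (45.3%). The median log2 fold change of the tested members was -0.074, beside -0.0020 over all tested genes and 0.019 over the 572 tested protein-coding genes elsewhere on chromosome 6. Because the members were proposed with this contrast known, nothing is read from these shares. Without sgCtrl replicate 2 the count of higher members was 0 in edgeR's test, with 2 at an unadjusted p under 0.05, and DESeq2 on all 6 libraries called 2. It was 1 without sg*NF2*-1 replicate 1, 1 without sg*NF2*-1 replicate 2 and 3 without sg*NF2*-1 replicate 3.

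Along the chromosome, most of the lower members lay at the left end. Before 27 Mb, 7 of the 11 tested members were called lower and 1 higher, with a median log2 fold change of -0.57, where over all tested genes 16.6% were lower and 17.7% higher. From 27 to 29 Mb, which holds most of the zinc finger genes, 1 of 14 was called lower and 1 higher, and the median was -0.0070. Beyond 29 Mb only *GABBR1* of 19 members passed the filter, and it was called lower. The difference between these stretches was not tested.

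**Figure D1:**
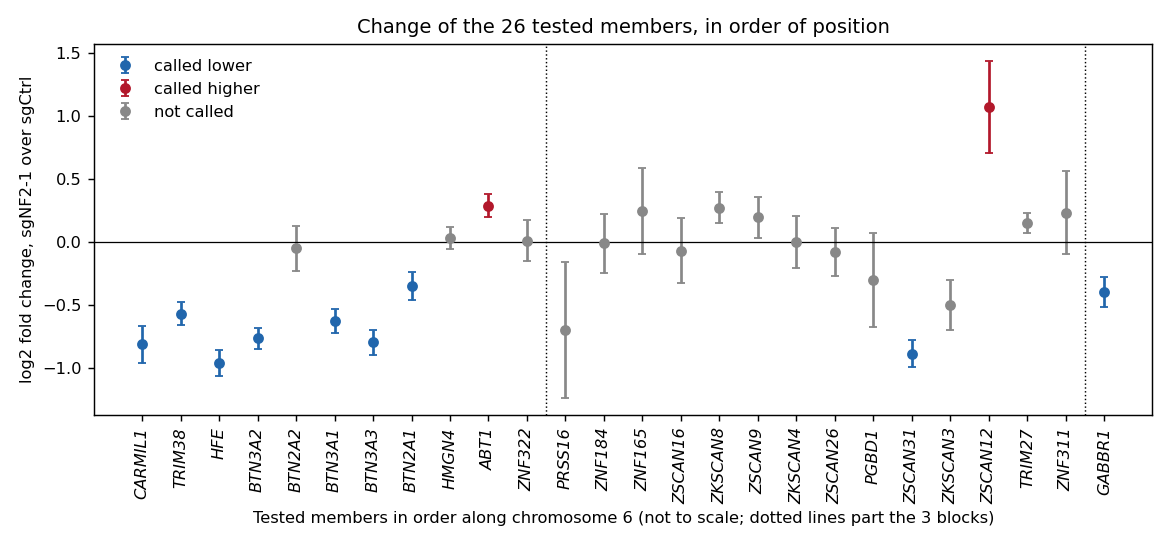
Log2 fold change of sgNF2-1 over sgCtrl (y axis) for the 26 tested members in order along chromosome 6 (x axis, not to scale), with bars of 1 standard error from edgeR, colours for the call and dotted lines at 27 and 29 Mb. The 9 members called lower range from -0.96 (HFE) to -0.35 (BTN2A1), and the 2 called higher are ABT1 (0.29) and ZSCAN12 (1.07).

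Butyrophilins made up 4 of the 9 lower members. Of 6 butyrophilin genes, 5 were tested, with a median log2 fold change of -0.63. Over all tested genes, 16.6% were lower and 17.7% higher. *BTN3A1*, *BTN3A2* and *BTN3A3* encode closely related proteins, of which BTN3A1 binds phosphoantigens inside the cell and takes part in activating gamma delta T cells. BTN2A1 acts with BTN3A1 in this recognition as a ligand of the T cell receptor.

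The promoters of 3 of the 4 lower butyrophilins are shown, because these genes are close relatives that were lower together. That of *ABT1*, a neighbour that was called higher, is beside them. *BTN3A1* and the uncalled *BTN2A2* had no window, so no tested relative that was not called could be compared. RefSeq (GRCh38.p14) gave the 300 bases from 250 before to 50 after the start for *BTN3A2* (chr6:26364948-26365247), *BTN3A3* (chr6:26440254-26440553), *BTN2A1* (chr6:26457705-26458004) and *ABT1* (chr6:26596703-26597002), all on the plus strand. Capitals mark the letters CAGCAACTG and the letters CCAAT, on either strand.
BTN3A2: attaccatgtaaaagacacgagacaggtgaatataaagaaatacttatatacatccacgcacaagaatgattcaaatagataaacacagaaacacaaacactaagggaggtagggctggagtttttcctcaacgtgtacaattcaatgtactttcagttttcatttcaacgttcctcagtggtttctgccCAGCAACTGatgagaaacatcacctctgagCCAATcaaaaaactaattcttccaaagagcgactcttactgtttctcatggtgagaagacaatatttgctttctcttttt
BTN3A3: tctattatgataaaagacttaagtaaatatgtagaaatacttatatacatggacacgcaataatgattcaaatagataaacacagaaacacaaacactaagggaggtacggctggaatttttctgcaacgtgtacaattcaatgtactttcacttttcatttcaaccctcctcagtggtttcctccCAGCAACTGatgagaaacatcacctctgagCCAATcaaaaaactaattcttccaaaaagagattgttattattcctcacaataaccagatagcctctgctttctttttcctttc
BTN2A1: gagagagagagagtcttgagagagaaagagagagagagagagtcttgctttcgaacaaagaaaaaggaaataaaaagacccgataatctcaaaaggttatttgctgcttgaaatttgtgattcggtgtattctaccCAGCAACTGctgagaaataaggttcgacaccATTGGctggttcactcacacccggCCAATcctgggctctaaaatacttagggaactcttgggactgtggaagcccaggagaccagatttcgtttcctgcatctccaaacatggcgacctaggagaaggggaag
ABT1: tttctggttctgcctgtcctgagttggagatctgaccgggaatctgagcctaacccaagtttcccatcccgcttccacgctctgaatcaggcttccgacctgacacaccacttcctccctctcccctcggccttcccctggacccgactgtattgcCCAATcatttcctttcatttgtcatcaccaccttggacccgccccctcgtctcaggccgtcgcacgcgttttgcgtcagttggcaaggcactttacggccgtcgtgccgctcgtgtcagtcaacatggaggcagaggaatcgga
The *BTN3A2* and *BTN3A3* windows aligned over 295 bases with 85.1% identity, and their longest identical run was 58 bases, which holds both CAGCAACTG and CCAAT. *BTN2A1* aligned with *BTN3A2* at 65.7% and with *BTN3A3* at 63.3% identity, with a longest run of 11 bases that includes CAGCAACTG. These letters were chosen after the sequences were seen. They were in 3 of the 48 members that matched a RefSeq window by symbol, and in 0.43% of the 35116 promoter windows searched on both strands. The windows searched do not cover every chromosome, and all windows below means these. CCAAT was in 5 of the 7 lower members with a window, in 9 of the 19 tested ones and in 34.6% of all windows, and *ABT1* holds it too. The core of the interferon-stimulated response element was in 1 of the 7 lower members with a window, *BTN3A3*, and in 3.57% of all windows. The *BTN3A3* match lies after the start, at position 36. This core was in 2 of the 19 tested members with a window, the other being the uncalled *ZNF311*, and in 6 of the 48 matched members. CATTCC, the core of the motif of the TEAD factors, was in 1 of the 19 tested members with a window, in 0 of the lower ones, and in 14.0% of all windows. GGGCGG was in 10 of these 19 and 45.0% of all windows, and TGACGT in 2 and 7.98%. A match describes letters and not binding.

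*BTN3A2* (ENSG00000186470, chromosome 6, 26365159 to 26378320, plus strand) had 143, 139 and 139 CPM in sgCtrl and 78.1, 85.5 and 84.4 CPM in sg*NF2*-1. Each sg*NF2*-1 library had less than any sgCtrl library, at 58.9% of the sgCtrl mean, and the log2 fold change was -0.77 (standard error 0.08). *BTN3A1* (ENSG00000026950, chromosome 6, 26402237 to 26415216, plus strand) had 59.96, 56.8 and 61.5 CPM in sgCtrl and 40.5, 39.8 and 35.0 CPM in sg*NF2*-1. Its groups did not overlap either, with sg*NF2*-1 at 64.6% of sgCtrl and a log2 fold change of -0.63 (standard error 0.09). *BTN3A3* (ENSG00000111801, chromosome 6, 26440472 to 26453415, plus strand) had 56.4, 57.5 and 57.4 CPM in sgCtrl and 35.9, 32.5 and 30.0 CPM in sg*NF2*-1. Its sgCtrl libraries lay close together and all above sg*NF2*-1, which stood at 57.4% of sgCtrl with a log2 fold change of -0.80 (standard error 0.10).

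The BTN2 genes lie among the BTN3 genes. *BTN2A1* (ENSG00000112763, chromosome 6, 26457904 to 26476621, plus strand) had 35.5, 35.9 and 30.9 CPM in sgCtrl and 29.6, 26.9 and 23.9 CPM in sg*NF2*-1. The lowest sgCtrl library was only just above the highest sg*NF2*-1 library, and the log2 fold change was -0.35 (standard error 0.11). Its call was lost without sgCtrl replicate 1 (-0.32), sgCtrl replicate 2 (-0.31) or sg*NF2*-1 replicate 3 (-0.27), and also at the unadjusted p and fold limit and with limma on log2(FPKM + 0.1) or on log2(FPKM + 1) without a filter, 6 of 17 alternatives in all. *BTN2A2* (ENSG00000124508, chromosome 6, 26383096 to 26394874, plus strand) had 8.44, 9.63 and 6.99 CPM in sgCtrl and 8.35, 6.28 and 9.62 CPM in sg*NF2*-1. Its groups overlapped, and its log2 fold change of -0.050 (standard error 0.18) was not called. *BTN1A1*, known as a protein of milk fat, had 1 count in 1 sgCtrl library and none elsewhere.

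How far sequence is shared between these genes was measured on the transcripts of GENCODE release 29. Of the distinct 100-base windows in the transcripts of *BTN3A2*, 4.89% also occur in a transcript of another gene, and the share was 5.60% for *BTN3A3*, 2.76% for *BTN3A1*, 0.662% for *BTN2A1* and 0.355% for *BTN2A2*. *BTN3A2* and *BTN3A3* share 369 windows. The windows are shorter than the paired reads that the study's methods describe, so these are shares of sequence and not of reads. How counting treated reads that fit several genes is not given in the sources used here, so the levels of these relatives are uncertain.

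Of 12 butyrophilin-like genes and class I regulators elsewhere in the genome, 6 were tested, 1 was higher and 2 were lower, with a median log2 fold change of -0.22, where over all tested genes 16.6% were lower and 17.7% higher. *RFXANK*, a subunit of the RFX complex that binds class I and class II promoters, was higher, with 51.5 ± 3.14 CPM in sgCtrl and 69.6 ± 6.64 in sg*NF2*-1 (SD, n = 3, log2 fold change 0.43). *RFX5*, another subunit of that complex, was lower, with 28.9 ± 0.858 CPM in sgCtrl and 22.5 ± 1.18 in sg*NF2*-1 (-0.36). *ERMAP*, a butyrophilin-like gene of red cells, was lower, with 8.68 ± 0.129 CPM in sgCtrl and 6.48 ± 0.717 in sg*NF2*-1 (-0.42).

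The other lower members at the left end have unrelated roles. *HFE* (ENSG00000010704, chromosome 6, 26087281 to 26098343, plus strand) encodes a class I-like protein that pairs with beta-2 microglobulin, binds the transferrin receptor and takes part in iron sensing. It had 47.0, 43.9 and 50.9 CPM in sgCtrl and 25.6, 22.0 and 25.2 CPM in sg*NF2*-1. Every sg*NF2*-1 library was well below every sgCtrl library, at 51.4% of the sgCtrl mean. Its log2 fold change of -0.96 (standard error 0.11) was the lowest among the tested members and stayed between -1.01 and -0.89 over 6 refits that each dropped 1 library.

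Of 12 partners of HFE and genes of iron handling, 8 were tested, 4 were lower and 1 was higher, with a median log2 fold change of -0.25, where over all tested genes 16.6% were lower and 17.7% higher. The transferrin receptor gene *TFRC* was lower, with 384 ± 8.16 CPM in sgCtrl and 275 ± 13.9 in sg*NF2*-1 (SD, n = 3, log2 fold change -0.48). The beta-2 microglobulin gene *B2M* was lower, with 8884 ± 927 CPM in sgCtrl and 6529.9 ± 449 in sg*NF2*-1 (-0.44). *IREB2* (-0.40), which encodes an iron-responsive RNA-binding protein, and the iron transporter gene *SLC11A2* (-0.36) were lower too. *ACO1*, which encodes the other iron-responsive RNA-binding protein, was higher, with 164 ± 3.16 CPM in sgCtrl and 205 ± 2.98 in sg*NF2*-1 (0.32).

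*TRIM38* (ENSG00000112343, chromosome 6, 25962802 to 25991226, plus strand) encodes a ubiquitin ligase that restrains innate immune signalling. It had 55.8, 59.5 and 63.5 CPM in sgCtrl and 41.7, 40.8 and 38.0 CPM in sg*NF2*-1. The groups did not overlap, sg*NF2*-1 was at 67.4% of sgCtrl, and the log2 fold change was -0.57 (standard error 0.09). *CARMIL1* (ENSG00000079691, chromosome 6, 25279078 to 25620530, plus strand), at the left limit, encodes a regulator of the actin capping protein. It had 13.1, 15.7 and 14.0 CPM in sgCtrl and 8.69, 7.13 and 8.50 CPM in sg*NF2*-1. These groups were also apart, with sg*NF2*-1 at 56.9% of sgCtrl and a log2 fold change of -0.81 (standard error 0.15). The pseudogene *CMAHP* overlaps it on the opposite strand and had a mean of 9 counts in sgCtrl.

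**Figure D2:**
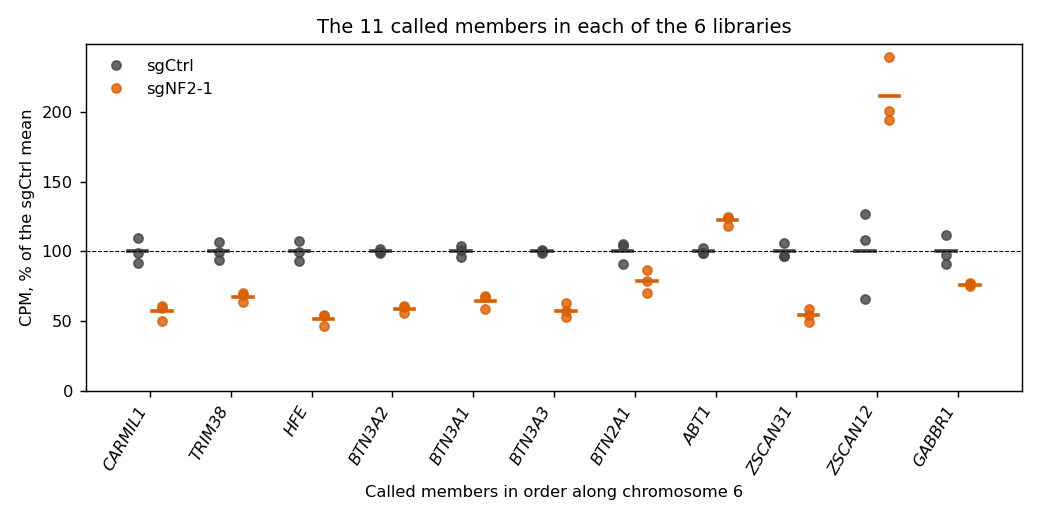
CPM of the 11 called members in each library as a percent of the gene's sgCtrl mean (y axis, from 0), with points for the 3 sgCtrl and 3 sgNF2-1 libraries and a short line for each mean. For each of the 9 lower members all sgNF2-1 points lie below all sgCtrl points, and the sgNF2-1 means of ABT1 and ZSCAN12 lie at 122% and 211%.

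The next 3 tested members to the right of the butyrophilins were *HMGN4*, *ABT1* and *ZNF322*, and none of them was called lower. *HMGN4* (ENSG00000182952, chromosome 6, 26538405 to 26546254, plus strand) encodes a nucleosome-binding protein and was the most abundant tested member per length, with 53.4 FPKM in sgCtrl and 54.1 in sg*NF2*-1, where FPKM is the deposited value that takes account of gene length and depth. It had 68.0, 71.3 and 76.2 CPM in sgCtrl and 78.7, 71.3 and 70.4 CPM in sg*NF2*-1. The groups overlapped, and the log2 fold change of 0.033 (standard error 0.09) was not called.

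*ABT1* (ENSG00000146109, chromosome 6, 26596952 to 26600744, plus strand), which encodes an activator of basal transcription with a part in ribosome assembly, had 39.3, 38.0 and 37.9 CPM in sgCtrl and 45.4, 47.6 and 47.8 CPM in sg*NF2*-1. All sg*NF2*-1 libraries were above the sgCtrl libraries, and the log2 fold change was 0.29 (standard error 0.09). This call was lost without sgCtrl replicate 2 (0.28) or sg*NF2*-1 replicate 2 (0.28) and at the unadjusted p and fold limit, 3 of 17 alternatives. *ZNF322* (ENSG00000181315, chromosome 6, 26634383 to 26659752, minus strand), a zinc finger gene, had 11.1, 7.92 and 10.5 CPM in sgCtrl and 11.5, 9.01 and 9.13 CPM in sg*NF2*-1. Its groups overlapped, with a log2 fold change of 0.011 (standard error 0.16) that turned negative with library totals in place of TMM (-0.013). Of its 100-base windows 19.6% occur in another gene, most of them in the pseudogene *ZNF322P1*, so its level is uncertain.

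The zinc finger and SCAN genes were the largest family. Zinc finger proteins of this kind bind DNA, and those with a KRAB domain can recruit the silencing protein TRIM28. Of 17 genes, 13 were tested, with a median log2 fold change of -0.0020. Among them 1 was called lower and 1 higher, where over all tested genes 16.6% were lower and 17.7% higher.

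*ZSCAN31* (ENSG00000235109, chromosome 6, 28324693 to 28356271, minus strand) was the lower one. It had 36.5, 36.4 and 40.0 CPM in sgCtrl and 22.1, 20.3 and 18.5 CPM in sg*NF2*-1. The groups did not overlap, with sg*NF2*-1 at 54.0% of sgCtrl and a log2 fold change of -0.89 (standard error 0.11). *ZKSCAN3* (ENSG00000189298, chromosome 6, 28349914 to 28369177, plus strand), which encodes a factor known as a repressor of autophagy genes, overlaps *ZSCAN31* by 6358 bases on the opposite strand. It had 5.08, 6.15 and 5.93 CPM in sgCtrl and 3.81, 4.28 and 4.07 CPM in sg*NF2*-1. All its sg*NF2*-1 libraries were below the sgCtrl libraries, but the log2 fold change of -0.50 (standard error 0.20) was not called. It was called under 7 of 17 alternatives, among them library totals in place of TMM (-0.53) and leaving out sgCtrl replicate 1 (-0.58). Whether counting used strand is not given in the sources used here, and without strand the reads of overlapping genes cannot be told apart.

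*ZSCAN12* (ENSG00000158691, chromosome 6, 28378955 to 28399734, minus strand), the next tested gene to the right, was the higher one. It had 1.14, 0.975 and 0.593 CPM in sgCtrl and 2.16, 1.81 and 1.76 CPM in sg*NF2*-1, from 18, 16 and 9 counts in sgCtrl and 38, 28 and 25 in sg*NF2*-1. The groups did not overlap, and the log2 fold change was 1.07 (standard error 0.37). The call rests on few counts and was lost without sgCtrl replicate 2 (1.13), sgCtrl replicate 3 (0.86) or sg*NF2*-1 replicate 1 (0.98). It was also lost with limma on log2(FPKM + 1) without a filter, 4 of the 14 alternatives that tested *ZSCAN12*. In the remaining alternatives *ZSCAN12* did not pass the filter.

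The other 9 tested genes of the family were not called. *ZKSCAN8* (ENSG00000198315), with the most counts among them, had 19.6, 20.4 and 23.1 CPM in sgCtrl and 26.4, 28.1 and 21.7 CPM in sg*NF2*-1. A single sg*NF2*-1 library fell inside the sgCtrl range, and the log2 fold change of 0.27 (standard error 0.12) was called without sgCtrl replicate 3 (0.35) or sg*NF2*-1 replicate 3 (0.38). *ZSCAN9* (ENSG00000137185) had 7.04, 7.31 and 7.64 CPM in sgCtrl and 9.55, 7.45 and 8.15 CPM in sg*NF2*-1 (log2 fold change 0.20, standard error 0.16). *ZSCAN26* (ENSG00000197062) had 4.95, 5.54 and 6.79 CPM in sgCtrl and 5.63, 5.83 and 4.85 CPM in sg*NF2*-1 (log2 fold change -0.080, standard error 0.19). The groups of both genes overlapped. *ZNF184* (ENSG00000096654) had 5.14, 4.63 and 4.15 CPM in sgCtrl and 6.14, 4.73 and 2.81 CPM in sg*NF2*-1 (log2 fold change -0.012, standard error 0.24). *ZKSCAN4* (ENSG00000187626) had 4.19, 4.204 and 4.74 CPM in sgCtrl and 4.43, 4.73 and 3.93 CPM in sg*NF2*-1 (log2 fold change -0.0016, standard error 0.21). *ZSCAN16* (ENSG00000196812) had 2.60, 4.57 and 5.21 CPM in sgCtrl and 3.07, 5.18 and 3.58 CPM in sg*NF2*-1 (log2 fold change -0.068, standard error 0.26). In these 3 genes the spread within each group was wider than the distance between the group means.

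The remaining 3 uncalled genes of the family had 119 to 193 counts over the 6 libraries. *ZNF311* (ENSG00000197935) had 1.46, 1.71 and 2.44 CPM in sgCtrl and 2.96, 2.01 and 1.54 CPM in sg*NF2*-1 (log2 fold change 0.23, standard error 0.33). *ZNF165* (ENSG00000197279) had 1.90, 1.16 and 1.32 CPM in sgCtrl and 1.70, 2.07 and 1.40 CPM in sg*NF2*-1 (log2 fold change 0.25, standard error 0.34). *PGBD1* (ENSG00000137338), which joins a SCAN domain to a piggyBac transposase, had 1.40, 1.64 and 1.12 CPM in sgCtrl and 0.852, 1.36 and 1.19 CPM in sg*NF2*-1 (log2 fold change -0.30, standard error 0.37). The groups of these 3 genes overlapped. The antisense gene *ZSCAN16-AS1* overlaps *ZSCAN16* with a mean of 35.3 counts in sgCtrl, and 6.22% of the *ZSCAN26* windows occur in the overlapping *AL021997.3* on the same strand.

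Of 19 ZSCAN and ZKSCAN genes outside the segment, 14 were tested, with a median log2 fold change of 0.067, beside -0.035 for the 8 tested ones inside it. The single called gene outside was *ZKSCAN5*, higher with 14.7 ± 0.437 CPM in sgCtrl and 19.2 ± 2.87 in sg*NF2*-1 (SD, n = 3, log2 fold change 0.39). Of 10 genes for TRIM28 and its silencing partners, all tested, 6 were lower and 1 was higher, with a median of -0.24, where over all tested genes 16.6% were lower and 17.7% higher. *TRIM28* was the higher one, with 249.8 ± 13.5 CPM in sgCtrl and 343 ± 24.6 in sg*NF2*-1 (0.46). The lower ones included *ATF7IP* (-0.37), a cofactor of the histone methyltransferase SETDB1, the heterochromatin protein genes *CBX3* (-0.37) and *CBX5* (-0.36), and *FAM208A* (-0.32), a subunit of the HUSH silencing complex.

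*TRIM27* (ENSG00000204713, chromosome 6, 28903002 to 28923989, minus strand), a ubiquitin ligase gene, had 117, 121 and 115 CPM in sgCtrl and 131, 136 and 125 CPM in sg*NF2*-1. All sg*NF2*-1 libraries were above the sgCtrl libraries, yet the log2 fold change of 0.15 (standard error 0.08) was not called. *PRSS16*, a serine protease gene of the thymus, passed the filter below 1 CPM with 4 to 19 counts per library. Its groups overlapped, and its log2 fold change of -0.70 (standard error 0.54) was not called.

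**Figure D3:**
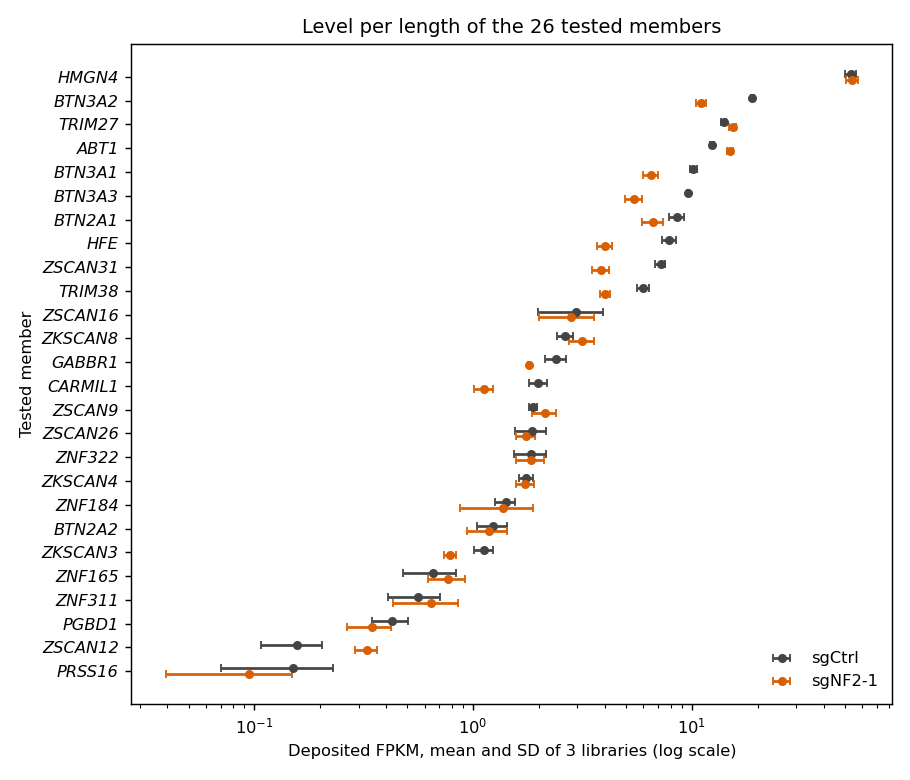
Deposited FPKM of the 26 tested members (x axis, log scale) as the mean and SD of 3 libraries for sgCtrl and sgNF2-1, in order of the sgCtrl mean (y axis). HMGN4 leads with 53.4 FPKM in sgCtrl, followed by BTN3A2 (18.9), TRIM27 (14.0) and ABT1 (12.3), and PRSS16 is lowest at 0.150.

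Per length, the called members spanned a wide range of levels in sgCtrl. *BTN3A2* was the second most abundant tested member with 18.9 FPKM and fell to 11.02 in sg*NF2*-1, below the sg*NF2*-1 levels of *TRIM27* (15.4 FPKM) and *ABT1* (14.9 FPKM). *HFE* and *ZSCAN31* had 7.89 and 7.20 FPKM in sgCtrl and 4.02 and 3.85 FPKM in sg*NF2*-1. *CARMIL1* had 1.99 FPKM in sgCtrl and 1.12 in sg*NF2*-1. *ZSCAN12* was near the bottom in both groups, at 0.156 and 0.326 FPKM.

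Beyond 29 Mb almost nothing was counted. *GABBR1* (ENSG00000204681, chromosome 6, 29555629 to 29633976, minus strand) encodes a subunit of the metabotropic GABA receptor. It had 20.8, 23.9 and 19.4 CPM in sgCtrl and 16.3, 16.0 and 16.5 CPM in sg*NF2*-1. The groups did not overlap, and the sg*NF2*-1 libraries lay close together. The log2 fold change was -0.40 (standard error 0.12), and the call was lost without sgCtrl replicate 2 (-0.31), at the unadjusted p and fold limit and with limma on log2(FPKM + 1) without a filter, 3 of 17 alternatives. *UBD*, a ubiquitin-like gene induced in inflammation, overlaps *GABBR1* on the same strand, and 6.97% of the *GABBR1* windows occur in its transcripts. It had 0 counts in every library, but how reads that fit both genes were counted is not given in the sources used here. These 0 counts therefore cannot show that *UBD* had no reads, and the levels of both genes are uncertain. The olfactory receptor *OR2H2*, which overlaps *GABBR1* on the opposite strand, had 0 to 7 counts per library. Of 8 listed partners of GABBR1, 4 were tested, with the G protein genes *GNAI1* higher (0.77) and *GNAI2* lower (-0.27). Over all tested genes, 17.7% were higher and 16.6% lower. *GABBR2*, singled out after its values were seen because GABBR1 needs it at the cell surface, did not pass the filter, with a mean of 0 CPM in sgCtrl and 0.0234 in sg*NF2*-1.

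The other 35 members did not pass the filter, and 25 of them had 0 counts in all 6 libraries, which allows a level of up to 0.0317 CPM over the 94694781 counts (3 counts, counting error only). Among these were all 4 SLC17 transporter genes, the glutathione peroxidase genes *GPX5* and *GPX6*, the calcium-binding protein gene *SCGN*, *POM121L2*, *NKAPL*, *MAS1L*, *UBD*, the imprint regulator *ZFP57*, and 13 of the 16 olfactory receptors. For *UBD* this limit does not hold, because reads in its overlap with *GABBR1* may not have been counted for it. The olfactory receptors with counts were *OR2B2*, *OR2B6* and *OR2H2*. *ZSCAN23* had 3, 8 and 4 counts in sgCtrl and 23, 10 and 4 in sg*NF2*-1. *ZBED9*, derived from a transposase, had 2, 4 and 6 counts in sgCtrl and 7, 11 and 10 in sg*NF2*-1. The counts of *ZBED9* were all higher in sg*NF2*-1, while those of *ZSCAN23* overlapped, and neither was tested. *ZNF391* had 2 to 14 counts per library, *AL031777.3* 1 to 8 counts per library and *AL021997.3* 0 to 2 counts per library. *MOG*, a myelin gene, had 2 counts in 1 sgCtrl library.

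At the left limit *CARMIL1* is the first member, and the 3 nearest protein-coding genes outside, *RIPOR2*, *AL512428.1* and *ARMH2*, had 0 counts in all libraries. At the right limit *ZFP57* is the last member, with 0 counts. *HLA-F* ends at the limit and was left out by name, with 97.9 ± 4.30 CPM in sgCtrl and 68.5 ± 9.78 in sg*NF2*-1 (SD, n = 3). Genes outside this limit include *HLA-G* with 0 counts and *ZNRD1* with 6.04 ± 0.812 CPM in sgCtrl and 7.50 ± 1.97 in sg*NF2*-1. Of the 55 histone genes between the same limits, 17 were tested, 11 were called lower (16.6% of all tested genes), and the median log2 fold change was -0.87.

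**Figure D4:**
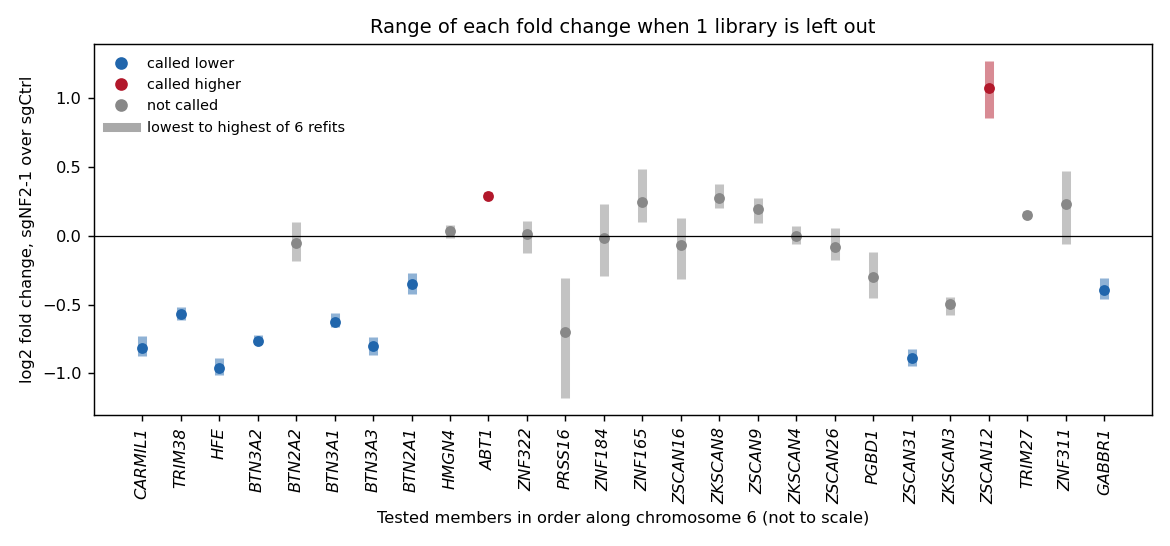
Log2 fold change of sgNF2-1 over sgCtrl (y axis) for the 26 tested members in order along chromosome 6 (x axis). Each point is a gene's value from all 6 libraries together. Bars run from the lowest to the highest value when 1 library is left out. HFE stays between -1.01 and -0.89 and BTN3A2 between -0.79 and -0.72, while ZNF184 ranges from -0.29 to 0.24.

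The lower members with a log2 fold change beyond -0.5 kept to narrow ranges when 1 library was dropped, while *BTN2A1* and *GABBR1* lost their call under the 6 and 3 alternatives named above. *CARMIL1* stayed between -0.87 and -0.73, *TRIM38* between -0.61 and -0.52, *BTN3A1* between -0.66 and -0.56, *BTN3A3* between -0.87 and -0.74, and *ZSCAN31* between -0.95 and -0.82 on the log2 scale. These 5 with *HFE* and *BTN3A2* kept their call under all 17 alternatives. *ZSCAN12* ranged from 0.86 to 1.27.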

How the data were processed

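Per the labels, total RNA was made into libraries with the NEBNext Ultra kit. The authors deposited raw counts per gene and FPKM values for each library, without pooling. The submitters' processing notes name HISAT2, StringTie 1.3.3b, featureCounts 1.5.0-p3 and hg38. The strand setting and the treatment of multi-mapping reads are not given in the sources used here. For genes with at least 50 counts, the deposited FPKM equalled count over length and over a depth of 1.03 to 1.08 times the library total, within 1%.

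Groups and replicate numbers came from the titles. The whole table was filtered with filterByExpr, scaled by TMM and fitted with edgeR 4.0.16 in R 4.3.3 (glmQLFTest, sg*NF2*-1 against sgCtrl). The study used DESeq2. DESeq2 1.42.0, limma 3.58.1 on log2(FPKM + 1) or log2(FPKM + 0.1), other scalings and filters, protein-coding genes only, another call rule, a replicate block and leaving out each library were the alternatives. The procedure was tested on simulated counts. Pairs of libraries within a group differed by a chi-square per degree of freedom of 5.18 to 12.8, so none was counted as a duplicate. Members with a mean of at least 1 CPM are given in every library and the others by counts. From related lists, called genes at 1 CPM or more were named, at most 4 in each direction. The members, lists and alternatives were chosen with earlier results of these data known. A gene beyond the right limit and a marker gene are not reported here.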

Additional observations from a re-analysis of the deposited data

How the results depend on the processing

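The processing was varied in 17 ways. The 9 lower members became 7 to 10, and the 2 higher members became 1 with at least 10 counts in every library, 1 under the unadjusted p and fold limit, and 1 under each of the 3 limma settings on FPKM. Leaving out 1 library gave 0 to 3 higher members, 7 to 9 lower ones and a median log2 fold change of -0.22 to 0.055. The number of members tested ranged from 23, with limma and its filter, to 36 without a filter. *ZSCAN12* was not tested with at least 10 counts in every library, and *ABT1* (0.29) lies under the fold limit of 0.5. The cause of the other moves was not tested. With the replicate block the counts were 2 higher and 9 lower with a median of -0.064. Deviations of same-numbered libraries correlated at -0.038, 0.071 and 0.059, and those of libraries with different numbers at -0.134 to 0.079. Whether same-numbered libraries were handled together cannot be told from these values. Of 434 values of single members, 21 changed sign, all of members that were not called: *ZNF322* was -0.013 with library totals and -0.0030 in each limma setting, and without a filter *ZNF184* was 0.0040 and *ZKSCAN4* 0.013. Without 1 library the ranges that cross 0 were -0.016 to 0.080 for *HMGN4*, -0.18 to 0.10 for *BTN2A2*, -0.13 to 0.11 for *ZNF322*, -0.29 to 0.24 for *ZNF184*, -0.31 to 0.13 for *ZSCAN16*, -0.058 to 0.069 for *ZKSCAN4*, -0.18 to 0.055 for *ZSCAN26* and -0.062 to 0.47 for *ZNF311*. A further 16 values lost and 9 gained a call. The call of *ZSCAN12* rests on 9 to 38 counts per library.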

Other observations

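Genes of other biotypes between the same limits, described after their values were seen, number 129, of which 80 had 0 counts in all libraries and 6 were tested. None of the 6 was called by edgeR's test at an adjusted p under 0.05, and 1, *ZNF192P1*, had an unadjusted p under 0.05. *ZNF192P1* had 1.81 ± 0.426 CPM in sgCtrl and 1.06 ± 0.339 in sg*NF2*-1 (SD, n = 3, log2 fold change -0.79, standard error 0.37). *BTN2A3P* had 3.11 ± 0.819 CPM in sgCtrl and 2.74 ± 0.188 in sg*NF2*-1 (SD, n = 3, log2 fold change -0.19, standard error 0.26), a butyrophilin pseudogene that lies among the lower butyrophilins. *ZSCAN12P1* had 1.27 ± 0.400 CPM in sgCtrl and 0.921 ± 0.408 in sg*NF2*-1 (SD, n = 3, log2 fold change -0.47, standard error 0.42), opposite in sign to *ZSCAN12*, and the difference between them was not tested. The groups of all 6 genes overlapped.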
